A study of Mus musculus with 6 samples.

Results

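The sirtuins Sirt1 to Sirt7 and the forkhead factors Foxo1, Foxo3 and Foxo4 were followed in the aorta of young and aged mice. These 10 genes, 7 sirtuins and 3 FoxO genes, were chosen by symbol as longevity regulators from a count table of 55335 genes. All 10 passed the filter on low counts and were among the 16612 genes tested. RNA was sequenced from the aorta of 3 wild-type c57b6l mice aged 6 weeks (young) and 3 aged 6 months (aged), with 1 library per mouse and no treatment. According to the methods of the study the mice were male, the fat around the vessel was dissected away, and a segment of whole vessel was taken. A mouse of 6 months is a mature adult, so the comparison spans maturation rather than late life. In bulk RNA from a vessel, fewer cells of a type and less RNA per cell cannot be told apart.

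Sirtuins are enzymes that use NAD to remove acetyl or other acyl groups from proteins. Sirt1, Sirt6 and Sirt7 act mainly in the nucleus, Sirt2 mainly in the cytoplasm, and Sirt3, Sirt4 and Sirt5 in mitochondria. FoxO factors are transcription factors held outside the nucleus when insulin or growth factor signalling through Akt phosphorylates them, and they turn on genes of stress defence, autophagy, cell cycle arrest and cell death. The families meet because Sirt1 and Sirt2 deacetylate FoxO proteins, and in the vessel wall both have been studied in endothelial and smooth muscle cells.

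The library totals lay between 31049632 and 45832185 counts, and each member had between 180 and 4202 counts in a library. Smooth muscle markers were abundant in all 6 libraries (summed CPM of 6 markers between 27960 and 40140). Young replicate 1 stood apart. Its 6 cardiac muscle markers summed to 308 CPM, against 80.2 to 91.9 in the other libraries. Xist, the RNA that silences an X chromosome in female cells, was at 306 CPM there and between 0.204 and 0.636 CPM elsewhere, and the Y-linked Ddx3y was at 1.09 CPM there and between 44.8 and 65.6 elsewhere, which goes against the sex given in the methods. Of the clock genes, Arntl was at 49.8 CPM there against 0.747 to 8.14 in the other libraries, and the output gene Dbp at 10.1 CPM against 125 to 436. Aged replicate 2 had the highest summed CPM of 6 brown adipocyte markers, 1903 against 129 to 601. Mitochondrial genes took 14.9% to 21.2% of the counts in young and 23.1% to 30.4% in aged libraries. Values without these libraries, or with libraries scaled by their totals alone, are given where they change a result.

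The FoxO genes have to be told apart by sequence, because they share the region that encodes the forkhead domain, the part that binds DNA. The most alike stretch of the 3 coding sequences is shown so that the differences a read must cover are visible. Each line is 60 bases of the coding strand, 5′ to 3′, from a GENCODE M21 transcript on GRCm38, and capitals mark the 8 positions at which the 3 genes are not all alike. The Foxo1 stretch spans exons 1 and 2 on the plus strand within chr3:52269371-52345046, the Foxo3 stretch exons 2 and 3 on the minus strand within chr10:42197894-42274867, and the Foxo4 stretch exons 1 and 2 on the plus strand within chrX:101255222-101258184.
Foxo1: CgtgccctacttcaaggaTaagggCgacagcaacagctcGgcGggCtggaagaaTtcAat
Foxo3: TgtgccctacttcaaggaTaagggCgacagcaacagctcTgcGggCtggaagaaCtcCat
Foxo4: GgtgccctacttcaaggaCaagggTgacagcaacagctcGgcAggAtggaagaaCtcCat
The longest run of identical bases anywhere between coding sequences of these genes was 38, between Foxo1 and Foxo3. That is shorter than a window of 50 bases, so no window of that length was shared between coding sequences of the 3 FoxO genes. The sirtuins are less alike. Their closest pair, Sirt2 and Sirt3, shared 44 of 60 bases in the best stretch, which lies in the catalytic core. It is printed with capitals at the 16 differing positions, from the plus strand within chr7:28778934-28782771 (exons 8 and 9) for Sirt2 and from the minus strand at chr7:140877669-140877728 (exon 3) for Sirt3.
Sirt2: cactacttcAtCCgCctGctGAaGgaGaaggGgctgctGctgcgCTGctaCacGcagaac
Sirt3: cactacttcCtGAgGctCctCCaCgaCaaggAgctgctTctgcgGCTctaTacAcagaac
The longest identical run between any sirtuins was 14 bases. Reads can still be shared with other genes. Of the 50-base windows of the transcripts, 14.2% in Sirt5, 10.6% in Sirt3 and 6.8% in Foxo1 also occurred in transcripts of genes outside the families, against at most 1.44% in the other members. Foxo1 overlaps an antisense gene over 7.78% of its exonic bases, and Sirt3 overlaps Psmd13 and Ric8a on the opposite strand over 12.7%. The shared windows of Sirt3 occur in these same 2 genes, while Sirt5 has 0 exonic bases in common with another gene. Sirt7 overlaps Mafg and Mir6936 on the same strand over a smaller part, 3.46% of its exonic bases. How the counting treated strand, and reads that match several genes, is not given in the sources used here. The counts of Sirt3, Foxo1 and Sirt7, for their overlaps, and of Sirt5, for its shared windows, are thus less certain than the rest.

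None of the 10 genes differed between young and aged aorta beyond the spread between mice. In the quasi-likelihood test of edgeR, with adjustment by Benjamini-Hochberg over all genes, 0 members were called at an adjusted p below 0.05, and their adjusted p ran from 0.578 for Sirt4 to 0.956 for Sirt1. The background was the same, since 0 of 16612 genes (0%) were called. At an unadjusted p below 0.05 the test marked 1723 genes (10.4%; 4.82% lower and 5.56% higher in aged aorta) and 0 members. DESeq2 called 338 genes (2.03%), and limma on FPKM called 0. Without aged replicate 2 edgeR called 110 genes (0.642%). None of these tests called a member. These p values set the difference between group means against the spread within groups, partly pooled over genes, with 3 mice in each group.

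The test could miss changes of the size seen here. In simulated counts for this comparison, over 16209 genes, it recovered 16.3% of the genes changed by 1 on the log2 scale and 87.3% of those changed by 2. The changed genes were drawn from the tested genes with a mean above 5 CPM, each with its own spread. These rates are thus not those of the members, nor of genes below that level. Most members varied less: their SD of log2 CPM within groups ran from 0.101 to 0.355, against a median of 0.351 over all genes tested. The fitted log2 fold changes of aged over young lay between -0.42 for Sirt4 and 0.32 for Foxo3. In this fit, with all 6 libraries and TMM scaling, the 95% intervals of all 10 members together ran from 0.507-fold to 1.89-fold. A change of 2-fold in either direction lay outside every interval, for Sirt4 by little, while some smaller changes lay inside. The Sirt4 log2 fold change was -0.57 without young replicate 1 and -0.65 with library totals. Intervals for these settings are not given here, so a 2-fold fall of Sirt4 is not excluded there.

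**Figure D1:**
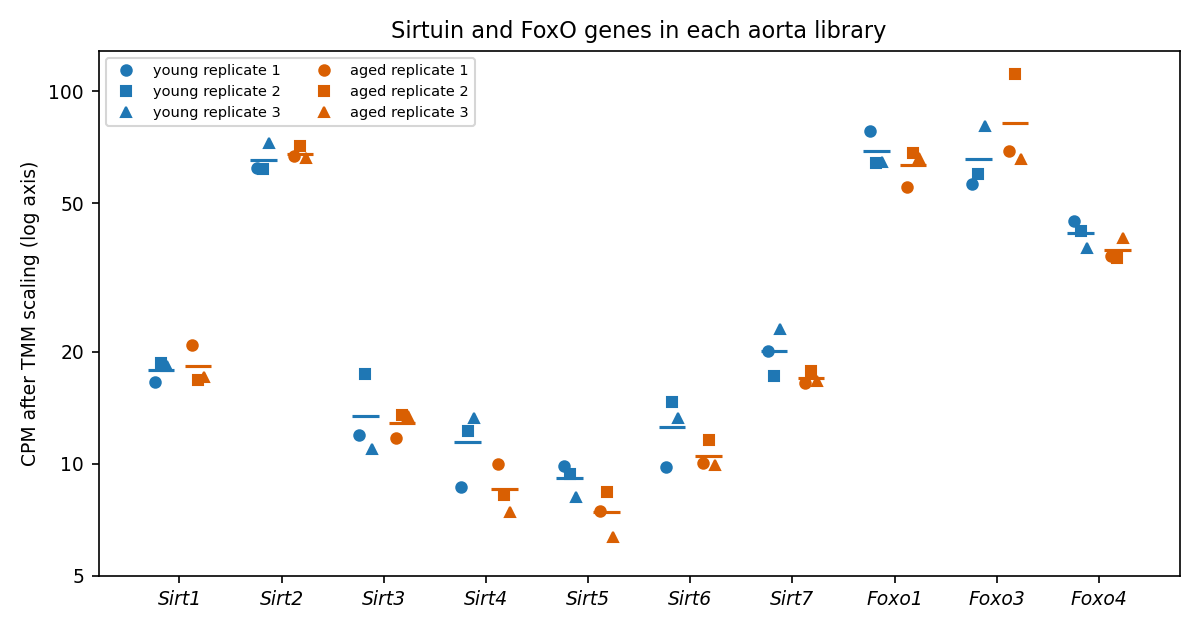
Level of each gene in each library, as CPM after TMM scaling on a log axis; blue symbols are young, orange symbols aged, symbol shapes are replicate numbers and bars are group means (n = 3). Young and aged symbols overlap for all 10 genes, and the highest single point of a FoxO gene is Foxo3 in aged replicate 2, at 111 CPM.

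Among the nuclear sirtuins, Sirt1 (GRCm38 chr10:63319005-63381704, minus strand), the deacetylase of histones, p53 and FoxO proteins, was at 16.5, 18.7 and 18.3 CPM in young replicates 1, 2 and 3, and at 20.9, 16.8 and 17.1 CPM in aged replicates 1, 2 and 3. CPM here is the count scaled to a common library size after TMM normalization. The aged values lay on both sides of the young ones, and the means were 17.8 ± 1.13 and 18.2 ± 2.29 CPM (SD, n = 3). The log2 fold change was 0.03 ± 0.17 (SE), with a 95% interval of 0.779-fold to 1.35-fold (edgeR, adjusted p = 0.956). The sign of so small a value was not fixed: it was -0.20 when libraries were scaled by their totals alone.

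Sirt6 (chr10:81621785-81627797, minus strand), which acts on histones at damaged DNA and telomeres, was at 9.80, 14.6 and 13.2 CPM in young and 10.02, 11.6 and 9.91 CPM in aged aorta. The lowest value of all was in young replicate 1, and the other 2 young libraries lay above every aged library. Its log2 fold change was -0.26 ± 0.22 (SE; edgeR, adjusted p = 0.688). It was -0.12 without young replicate 2 and -0.40 without young replicate 1. Sirt7 (chr11:120618372-120625240, minus strand), the nucleolar sirtuin tied to ribosomal RNA transcription, was at 20.02, 17.2 and 22.9 CPM in young and 16.5, 17.7 and 16.6 CPM in aged aorta. Young replicate 2 fell among the aged values, which spanned little more than 1 CPM. The difference was -0.24 ± 0.17 (SE, log2; edgeR, adjusted p = 0.641), and it was -0.12 without young replicate 3.

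Sirt2 (chr7:28766735-28788661, plus strand), the cytoplasmic deacetylase of tubulin, was the most abundant sirtuin. It was at 62.1, 61.8 and 72.5 CPM in young and 67.0, 71.2 and 66.0 CPM in aged aorta. Both the lowest and the highest library were young. The means of 65.5 ± 6.08 and 68.0 ± 2.74 CPM (SD, n = 3) gave a log2 fold change of 0.06 ± 0.14 (SE), with an interval of 0.825-fold to 1.31-fold (edgeR, adjusted p = 0.907). As for Sirt1, the sign turned with scaling by library totals, to -0.18.

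Of the mitochondrial sirtuins, Sirt3 (chr7:140863666-140882309, minus strand), the main deacetylase of the matrix, was at 12.0, 17.4 and 10.96 CPM in young and 11.7, 13.5 and 13.4 CPM in aged aorta. Young replicate 2 was far above the rest, and the log2 fold change was -0.06 ± 0.23 (SE; edgeR, adjusted p = 0.940). Without that library it was 0.18. Sirt4 (chr5:115478010-115484725, minus strand), which acts on glutamate dehydrogenase and other matrix enzymes, was at 8.67, 12.2 and 13.3 CPM in young and 9.96, 8.22 and 7.43 CPM in aged aorta. Young replicate 1 lay among the aged libraries and the other 2 young libraries lay above all of them. Sirt4 had the widest difference of the 10, -0.42 ± 0.24 (SE, log2), with an interval of 0.507-fold to 1.11-fold (edgeR, adjusted p = 0.578). Without young replicate 1 it was -0.57, and Sirt4 was then the only member at an unadjusted p below 0.05 (edgeR). That is 1 of 10 members, against 11.3% of all genes tested in that setting. Sirt5 (chr13:43365496-43395203, plus strand), which removes succinyl and malonyl groups, was at 9.87, 9.40 and 8.13 CPM in young and 7.46, 8.38 and 6.37 CPM in aged aorta. A single pair of libraries, young replicate 3 and aged replicate 2, made the groups overlap. The log2 fold change was -0.30 ± 0.21 (SE; edgeR, adjusted p = 0.636).

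Foxo1 (chr3:52268336-52353221, plus strand), the factor best known from insulin signalling and from endothelial quiescence, was at 78.2, 64.0 and 64.6 CPM in young and 55.2, 68.2 and 66.1 CPM in aged aorta. Its extremes were young replicate 1 and aged replicate 1, and the other 4 libraries lay within a few CPM of each other. The log2 fold change was -0.12 ± 0.16 (SE; edgeR, adjusted p = 0.802). Without young replicate 1 it was -0.02. Foxo4 (chrX:101254528-101260873, plus strand), a FoxO factor of smooth muscle among other tissues, was at 44.9, 42.2 and 37.9 CPM in young and 36.1, 35.7 and 40.4 CPM in aged aorta. Aged replicate 3 exceeded young replicate 3, so the groups overlapped. The difference was -0.15 ± 0.14 (SE, log2; edgeR, adjusted p = 0.719), and it was -0.09 without young replicate 1, the library with Xist. Foxo4 lies on the X chromosome, and its value in that library, the highest of the 6, was 44.9 CPM.

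Foxo3 (chr10:42181841-42276755, minus strand), the FoxO gene linked to human longevity, was the 1 FoxO gene with a higher aged mean. It was at 56.3, 60.04 and 80.6 CPM in young and 69.1, 111 and 65.6 CPM in aged aorta. Aged replicate 2 was the highest library, while the other 2 aged libraries lay below young replicate 3. The log2 fold change of 0.32 ± 0.25 (SE), with an interval of 0.826-fold to 1.89-fold (edgeR, adjusted p = 0.672), rested on that library: it was 0.04 without aged replicate 2, and -0.06 without both aged replicate 2 and young replicate 1. In aged replicate 2 the summed CPM of 8 glucocorticoid-responsive genes was 1370, against 629 and 863 in the other aged libraries and 270 to 517 in young ones. The 6 white adipocyte markers summed to 1892 CPM there, against 412 to 1226 in the other libraries, beside the brown adipocyte sum given above. The part of these genes in the Foxo3 level was not tested.

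A further FoxO gene, Foxo6, a mainly neuronal factor that is outside the list, was at 5.47, 3.19 and 2.53 CPM in young and 3.40, 2.23 and 5.41 CPM in aged aorta. The groups covered almost the same range, with a log2 fold change of -0.03 ± 0.44 (SE; edgeR, adjusted p = 0.988).

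Counted over the list, 7 of 10 members had a lower fitted level in aged aorta, and 3 of 10 a higher one, against 47.9% and 52.1% of all genes tested, and the number of lower ones was 9 of 10 when libraries were scaled by their totals. By family these were 5 of 7 sirtuins and 2 of 3 FoxO genes, and 7 of 7 and 2 of 3 with library totals. The median log2 fold change was -0.14 over the members and 0.02 over all genes tested. With library totals it was -0.38 and -0.22, so the members stood 0.16 below the median of all genes either way. In CPM, 0 members had every aged library below every young library, against 8.78% of all genes tested, and 0 had every aged library above, against 7.74%. On the authors' FPKM, which are scaled to library totals without TMM, 4 members did (Sirt5, Sirt7, Foxo1 and Foxo4), against 20.9% of all genes, and 0 lay the other way, against 3.24%. The higher mitochondrial share of the aged libraries moved with that shift, and its part was not tested. Cell type markers moved between the groups as well. All 6 smooth muscle markers were lower in aged aorta (median log2 fold change -0.32). All 6 fibroblast (1.39, 5 of 6 with library totals), all 6 macrophage (1.35) and all 6 proliferation markers (1.93) were higher. The proliferation markers were low, with summed CPM of 3.51 to 24.3. All 6 endothelial markers were higher as well (0.80), but without aged replicate 3 the split was 1 higher and 5 lower. All 5 cardiac muscle markers tested were lower (-2.18), but without young replicate 1 the split was 2 higher and 3 lower. At an unadjusted p below 0.05 edgeR marked 3 smooth muscle, 4 fibroblast, 6 macrophage, 5 proliferation, 2 cardiac muscle and 0 endothelial markers. Over all genes tested, 10.4% reached that p. At an adjusted p below 0.05 edgeR called 0 of these markers. DESeq2 called 2 fibroblast, 3 macrophage and 2 proliferation markers. Without aged replicate 2, edgeR called 4 fibroblast and 3 macrophage markers. The fibroblast markers summed to 1858 to 2856 CPM in young and to 6578, 1704 and 4830 CPM in aged libraries. The part of these cell type markers in the member levels was not tested.

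**Figure D2:**
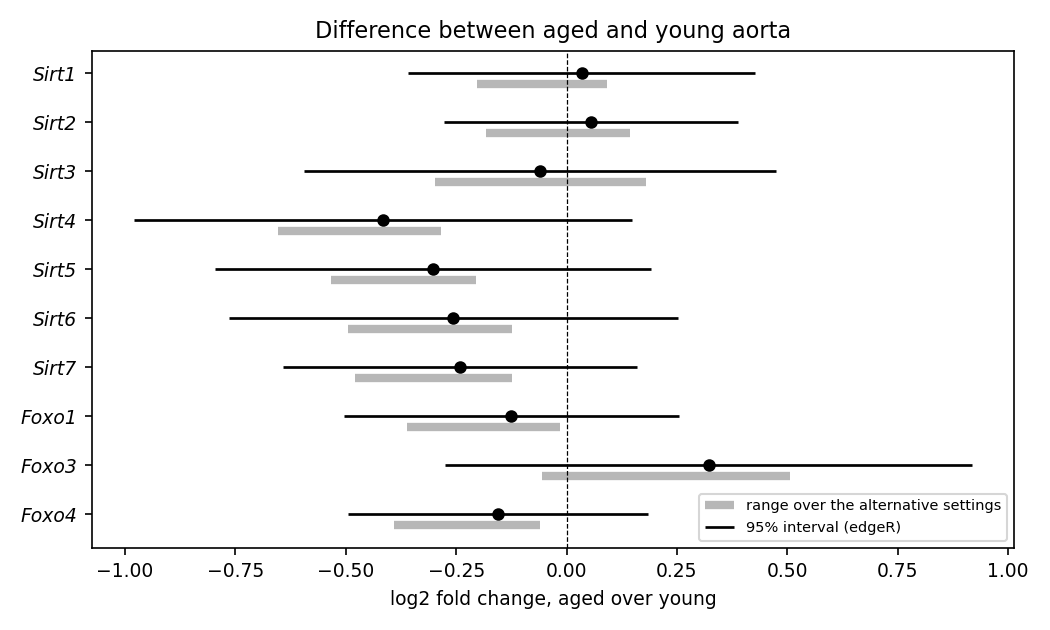
Fitted log2 fold change of aged over young aorta for each gene (points) with its 95% interval from edgeR (black lines); grey bars span the values under the 17 alternative settings. Every interval crosses 0, and the grey bars of Sirt1, Sirt2, Sirt3 and Foxo3 cross 0 as well.

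The members differed in how much they varied from mouse to mouse. The SD of log2 CPM within groups was 0.101 for Sirt2, 0.111 for Foxo4, 0.141 for Sirt1 and 0.153 for Sirt7, against a median of 0.351 over all genes tested. Among genes within 2-fold of the same level, 7.85% had a smaller SD than Sirt2, 9.46% a smaller SD than Foxo4, 12.3% and 12.4% a smaller SD than Sirt1 and Sirt5, and 16.4% a smaller SD than Sirt7. Foxo3 was the most variable member, with an SD of 0.355, and 76.2% of the genes at its level varied less. Sirt3, Sirt4, Sirt6 and Foxo1 lay between: 43.0%, 40.5%, 30.5% and 27.9% of the genes at their levels varied less.

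Levels of different genes were compared as FPKM, which divides by gene length. In young aorta the order ran from Sirt2 at 12.8 ± 1.46 FPKM (SD, n = 3) through Foxo4 at 11.6 ± 0.714, Foxo3 at 8.47 ± 1.88 and Foxo1 at 7.73 ± 0.722. The remaining sirtuins followed, with Sirt4 at 4.63 ± 1.09, Sirt6 at 4.39 ± 0.941, Sirt7 at 3.79 ± 0.596, Sirt1 at 3.25 ± 0.277, Sirt3 at 2.18 ± 0.567 and Sirt5 at 1.45 ± 0.116. Neighbours whose libraries did not overlap were Foxo4 over Foxo3, Foxo1 over Sirt4, Sirt1 over Sirt3 and Sirt3 over Sirt5. The others in this order, Sirt2 with Foxo4, Foxo3 with Foxo1, and the run Sirt4, Sirt6, Sirt7 and Sirt1, could not be separated from their neighbours.

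In aged aorta Sirt2 was again first, at 11.4 ± 0.764 FPKM (SD, n = 3), followed by Foxo3 at 9.09 ± 3.02, Foxo4 at 8.96 ± 0.314 and Foxo1 at 6.09 ± 0.649. Sirt6 (3.15 ± 0.351), Sirt4 (2.96 ± 0.528), Sirt1 (2.86 ± 0.405) and Sirt7 (2.74 ± 0.177) overlapped with their neighbours, and Sirt3 (1.79 ± 0.125) and Sirt5 (1.01 ± 0.170) came last with no overlap. Foxo4 over Foxo1, Foxo1 over Sirt6, Sirt7 over Sirt3 and Sirt3 over Sirt5 were the neighbours that did not overlap. Foxo3 passed Foxo4 by its mean alone, since it was above Foxo4 in 1 of 3 aged libraries. Within the sirtuins, Sirt2 was above the next member in all 6 libraries, and Sirt5 was the lowest in each group.

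The share of a gene in the FPKM sum of its family within a library does not depend on the scaling between libraries. Sirt2 made up 41.2%, 36.4% and 40.5% of the sirtuin sum in young and 42.6%, 44.5% and 44.7% in aged aorta. Every aged library was above every young one, by 4.58 percentage points between means of 39.4 ± 2.62% and 44.0 ± 1.15% (SD, n = 3). The exact two-sided permutation test gave p = 0.1, the smallest p that 3 against 3 allows, so this design cannot take the difference past 0.05. As 10 shares were tested, Benjamini-Hochberg adjustment of these permutation p values over them gave 0.444. The Sirt2 FPKM itself was not higher, with means of 12.8 in young and 11.4 in aged aorta. The sirtuin sum was 28.6 to 35.6 FPKM in young and 23.7 to 27.2 FPKM in aged libraries. The shares of the other 9 members overlapped between the groups. Sirt4 went from 14.1 ± 1.92% to 11.4 ± 1.54% of the sirtuin sum (SD, n = 3; exact permutation p = 0.2). Of the FoxO sum, Foxo3 held 30.3 ± 5.83% in young and 37.0 ± 7.04% in aged aorta (SD, n = 3; exact permutation p = 0.3), and Foxo4 held 41.9 ± 3.75% and 37.6 ± 5.60% (exact permutation p = 0.4). In aged replicate 2, Foxo3 reached 44.8% and Foxo4 fell to 31.2% of that sum, the extremes of the 6 libraries.

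**Figure D3:**
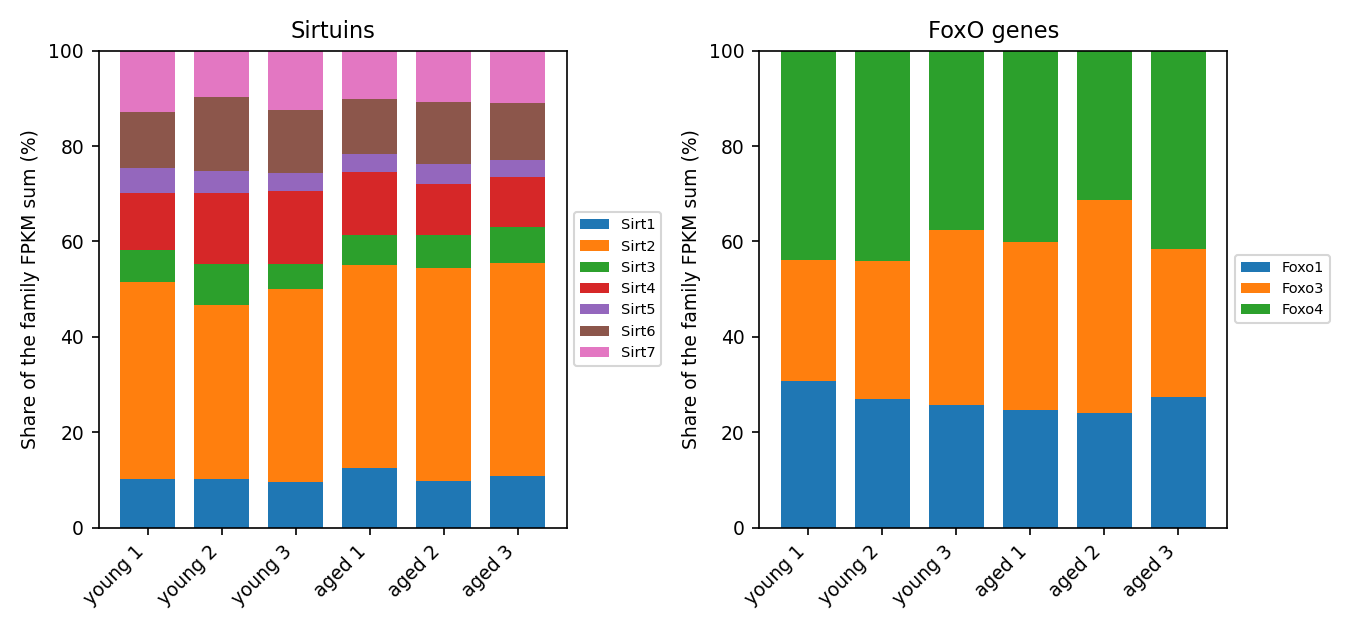
Share of each gene in the summed FPKM of its family, in percent, for each library; the left panel holds the 7 sirtuins and the right panel the 3 FoxO genes. The Sirt2 segment covers 36.4% to 41.2% in young and 42.6% to 44.7% in aged libraries, and the Foxo3 segment is largest in aged replicate 2, at 44.8%.

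The pattern over the 6 libraries was also compared between genes, by the distance between log2 CPM centred on each gene's mean, among 10969 genes whose mean reached 5 CPM. A distance of 0 means the same profile. The nearest genes outside the families were Arpc2 for Sirt1 (0.0538), Sertad3 for Sirt7 (0.0693), Fbxw8 for Sirt2 (0.0701), Wdr36 for Foxo4 (0.0743) and Zfp974 for Foxo1 (0.0981). For the more variable members they were farther, with Abcb9 for Sirt6 (0.121), Stk11 for Sirt3 (0.123), Gm44220 for Sirt5 (0.139), Rgs7bp for Sirt4 (0.170) and Gm8355 for Foxo3 (0.207). Among the members the closest pair was Foxo1 and Foxo4 at 0.279, against a median distance to all these genes of 0.748 from Foxo1 and 0.706 from Foxo4. Of the genes outside the list, 1.46% were nearer to Foxo1 and 2.27% nearer to Foxo4 than they were to each other. Sirt1 and Sirt2 followed at 0.348 (7.05% nearer to Sirt1 and 8.98% nearer to Sirt2), and then Sirt7 with Sirt2 as its nearest member at 0.393 (9% nearer to Sirt7). For Sirt5 the nearest member was Foxo4 at 0.455 (6.67% nearer), and for Sirt4 and Sirt6 it was each other, at 0.458 (3.07% and 8.48%). These distances describe 6 libraries that share the same depth and tissue differences.

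Upstream of the FoxO factors, 28 genes of the insulin, PI3K, Akt and stress kinase pathways were all tested. Of these, 12 were higher and 16 lower in aged aorta (4 and 24 with library totals), with a median log2 fold change of -0.07, and 0 were called (edgeR; 2 at an unadjusted p below 0.05, both higher; DESeq2 also called 0). The Akt kinases that phosphorylate FoxO proteins overlapped between groups. Akt1 had a log2 fold change of -0.05 ± 0.19 (SE) and was lowest in aged replicate 2, at 114 CPM against 157 to 175 elsewhere. Akt2 had a log2 fold change of 0.09 ± 0.17 (SE). Pik3r1, the regulatory subunit of PI3K, was at 48.6, 48.7 and 56.8 CPM in young and 71.6, 73.9 and 71.8 CPM in aged aorta. All aged libraries were above all young ones, with a log2 fold change of 0.49 ± 0.14 (SE; edgeR, adjusted p = 0.379). Ywhaz, a 14-3-3 protein of the family that binds phosphorylated FoxO, had a log2 fold change of 0.55 ± 0.22 (edgeR, adjusted p = 0.462) with overlapping groups. Skp2, a ubiquitin ligase subunit for Foxo1, was at 3.53 to 5.27 CPM in young and 2.87 to 3.01 CPM in aged aorta (-0.56 ± 0.27, SE, log2; edgeR, adjusted p = 0.528). Pik3r1, Ywhaz and Skp2 were named for having the smallest p of this list, a choice that favours separated groups. The same rule named genes in the lists below. Over all genes tested, every aged library was above every young one in 7.74% and below in 8.78% (CPM). An unadjusted p below 0.05 was reached by 10.4% of all genes tested (edgeR).

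Of 36 genes known as FoxO targets, 34 were tested, since Fasl and Trim63 were too low. In aged aorta 21 were higher and 13 lower (16 and 18 with library totals), the median log2 fold change was 0.09, and 0 were called (edgeR; 2 higher and 1 lower at an unadjusted p below 0.05). DESeq2 called 1, Ddit4. Without aged replicate 2 the split turned to 13 higher and 21 lower. Ddit4, an inhibitor of mTORC1 that glucocorticoids also induce, was at 7.68, 21.1 and 7.93 CPM in young and 13.5, 72.9 and 60.1 CPM in aged aorta. Aged replicates 2 and 3 were far above the rest and aged replicate 1 was among the young, with a log2 fold change of 2.0 ± 0.66 (SE; edgeR, adjusted p = 0.405). Klf4, a transcription factor of smooth muscle and endothelium, had a log2 fold change of 0.71 ± 0.27 (edgeR, adjusted p = 0.448) with overlapping groups. Fbxo32, the ubiquitin ligase atrogin-1, was at 133, 133 and 121 CPM in young and 110, 89.6 and 92.7 CPM in aged aorta, each aged library below each young one (-0.41 ± 0.15, SE, log2; edgeR, adjusted p = 0.437). The 3 most abundant targets by FPKM were Txnip, Gabarapl1 and Cat. Txnip, an inhibitor of thioredoxin, was near no change (0.02 ± 0.27, SE, log2). Gabarapl1, an autophagy protein, was at 137 to 180 CPM in young and 187 to 206 CPM in aged aorta (0.32 ± 0.16; edgeR, adjusted p = 0.535). Catalase (Cat) was at 84.6 to 117 CPM in young libraries and at 87.7, 199 and 98.2 CPM in aged ones, so its highest value, like that of Foxo3, was in aged replicate 2.

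The forkhead motif GTAAACA was searched on both strands in the 250 bases before each gene's start, using RefSeq promoters of GRCm38.p6. It occurred in 3.54% of 27025 genes and in 5 of the 33 FoxO targets with an entry (Bbc3, Bcl2l11, Btg1, Trim63 and Txnip). It was in 0 of the 9 members with an entry; Foxo4 is not in the table. The matches of the 4 tested targets are printed so that the motif can be seen beside their levels, with the motif in capitals, read on the plus strand of chr7:16310068-16310126, chr2:128125788-128125843, chr10:96616771-96616829 and chr3:96557810-96557868 in that order.
Bbc3: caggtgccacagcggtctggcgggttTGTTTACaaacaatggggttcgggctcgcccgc
Bcl2l11: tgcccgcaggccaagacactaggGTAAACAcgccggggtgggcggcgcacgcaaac
Btg1: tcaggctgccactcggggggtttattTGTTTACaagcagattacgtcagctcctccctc
Txnip: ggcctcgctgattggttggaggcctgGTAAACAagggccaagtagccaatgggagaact
These genes were picked by the motif and not by their values. The death genes Bbc3 and Bcl2l11 had log2 fold changes of -0.26 ± 0.32 and -0.04 ± 0.44 (SE), the growth inhibitor Btg1 had -0.90 ± 0.41 (edgeR, adjusted p = 0.506), and all 4, Txnip included, overlapped between the groups. A match is a stretch of letters and says nothing here of binding. Of other motifs, the GC box GGGCGG was found for 8 of the 9 members with an entry. It was found for 81.8% of the FoxO targets with an entry and for 35.4% of all 27025 genes with an entry. The E-box CACGTG was found for Sirt1 alone among the members, against 21.2% of those targets and 6.86% of those 27025 genes. They include genes not tested here, and the shares among the tested genes alone are not given. A gene with several promoters counted where any of them held the motif.

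Sirtuins depend on NAD, and 20 of 21 genes of its synthesis and use were tested. Of these, 9 were higher and 11 lower in aged aorta (7 and 13 with library totals, 12 and 8 without young replicate 2), with a median log2 fold change of -0.04 and 0 called (edgeR; 2 higher and 1 lower at an unadjusted p below 0.05; DESeq2 also called 0). Nampt, the rate-limiting enzyme of NAD salvage, was at 66.4, 71.0 and 54.0 CPM in young and 77.7, 139 and 79.5 CPM in aged aorta. The aged libraries were all above the young ones, by 0.63 ± 0.26 (SE, log2; edgeR, adjusted p = 0.472), and aged replicate 2 was the highest. Parp1, the main NAD-consuming polymerase of DNA repair, was at 49.6, 53.4 and 54.7 CPM in young and 37.9, 46.9 and 38.5 CPM in aged aorta, each aged library below each young one (-0.36 ± 0.15, SE, log2; edgeR, adjusted p = 0.482). Aox1, an oxidase of nicotinamide derivatives among other substrates, was at 53.0 to 61.2 CPM in young and 67.9 to 87.1 CPM in aged aorta (0.40 ± 0.16; edgeR, adjusted p = 0.462). The abundant Parp3 and Nadk overlapped between the groups, with log2 fold changes of -0.24 ± 0.15 and -0.26 ± 0.33 (SE).

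Among 23 partners and substrates of sirtuins, 22 were tested, 14 were higher and 8 lower in aged aorta (10 and 12 with library totals), and the median log2 fold change was 0.17. Without aged replicate 2 the split turned to 7 higher and 15 lower. With all libraries 0 were called (edgeR; 2 higher and 1 lower at an unadjusted p below 0.05), while 1, Ucp2, was called by DESeq2 and by edgeR without aged replicate 2. Ucp2, a mitochondrial carrier whose gene Sirt1 is known to repress, was at 8.96, 13.8 and 8.92 CPM in young and 41.6, 22.1 and 49.5 CPM in aged aorta. Every aged library was above every young one, with a log2 fold change of 1.84 ± 0.34 (SE; edgeR, adjusted p = 0.317). Ucp2 is also a gene of macrophages, and the summed CPM of 6 macrophage markers was 85.6 to 112 in young and 369, 116 and 246 in aged libraries. Its part in the Ucp2 difference was not tested. Nos3, the endothelial nitric oxide synthase that Sirt1 deacetylates, was at 25.4, 24.9 and 25.7 CPM in young and 28.5, 37.5 and 151 CPM in aged aorta (1.51 ± 0.60, SE, log2; edgeR, adjusted p = 0.453). The highest library, aged replicate 3, also had a summed CPM of 1686 for 6 endothelial markers against 342 to 489 in the others, and that part was not tested either. Hif1a, the hypoxia factor that Sirt1 and Sirt6 restrain, was at 98.8, 101 and 104 CPM in young and 71.5, 72.8 and 82.2 CPM in aged aorta, with all aged libraries lower (-0.42 ± 0.14, SE, log2; edgeR, adjusted p = 0.403). The metabolic enzymes Acadl, Pdha1 and Ldhb overlapped between groups and were each highest in aged replicate 2, at 450, 569 and 199 CPM.

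**Figure D4:**
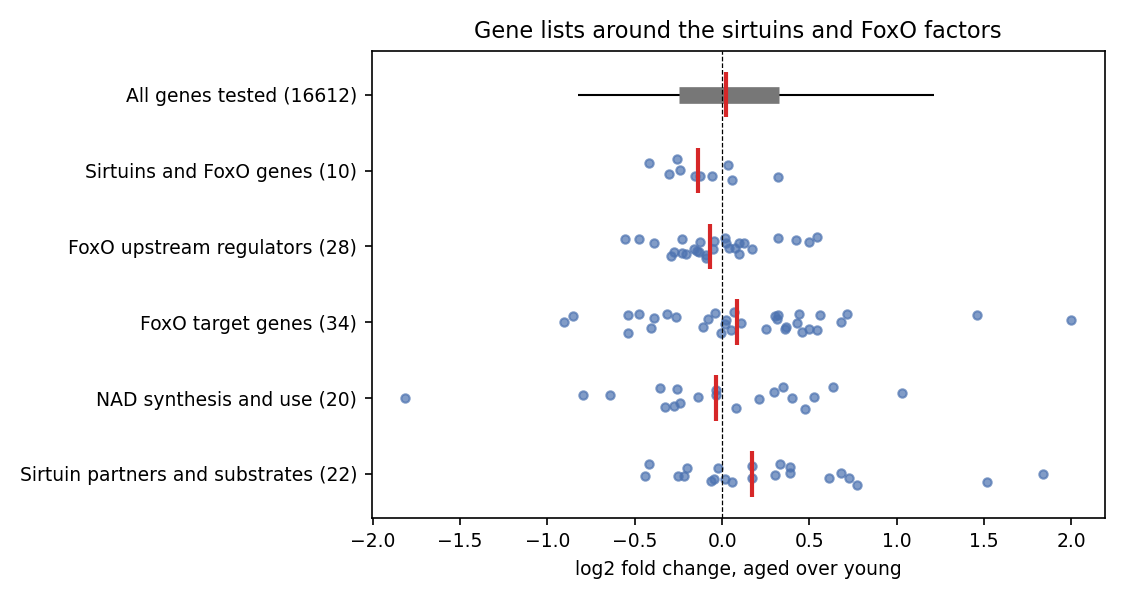
Fitted log2 fold change of aged over young aorta for each tested gene of the members and of 4 lists around them (blue points), with list medians as red bars; the top line shows the spread of all 16612 genes tested, the grey bar covering their middle 50% and the thin line their middle 90%. Member points lie between -0.42 and 0.32, and the list medians between -0.14 and 0.17.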

How the data were processed

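RNA of mouse aorta (3 young and 3 aged mice) was read from files that the authors deposited as counts per gene and as FPKM, the latter scaled for gene length and library total. The submitters' processing notes name mm10; the aligner, counter and annotation are not given in the sources used here. Positions come from GENCODE M21 on GRCm38.

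Counts were filtered with edgeR 4.0.16 in R 4.3.3 (filterByExpr, minimum count 10, minimum total 15), scaled by TMM and tested by quasi-likelihood as 2 groups with no covariate. Benjamini-Hochberg adjustment ran over 16612 genes, with a threshold of 0.05. SE is the log2 fold change divided by the square root of F. FPKM served for order and shares. Exact permutation tests were two-sided. The fit was tested on simulated counts, where it made 10 false calls with 200 changed genes and 1 with none. No 2 libraries of a group were duplicates. No column was left unmapped (0).

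All members are named, with Foxo6, and from each pathway list the 3 genes with the highest mean FPKM and the 3 with the smallest p, the nearest gene of each member, and genes that set libraries apart. The members and lists were chosen with earlier results of these data known.

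Same-numbered libraries deviated together only weakly (r = 0.0697, 0.106 and 0.0809), so numbers were not taken as pairs. The alternatives were RLE factors, library totals, other filters, robust fitting, a replicate block, no mitochondrial genes, each library left out, DESeq2 1.42.0 and limma 3.58.1 on log2 of FPKM plus 1 or plus 0.1. Leaving out young replicate 1 and aged replicate 2 together was added after the data were seen.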

Additional observations from a re-analysis of the deposited data

How the results depend on the processing

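No member was called under any of the 17 alternatives, where the lowest adjusted p of a member was 0.238 (Foxo4, library totals). The count of members at an unadjusted p below 0.05 was 0 with TMM (10.4% of all genes). It was 4 with library totals (Sirt4, Sirt5, Sirt7 and Foxo4, against 17.7% of all genes). With limma at a pseudocount of 1 or 0.1 it was 2 (Sirt4 and Foxo4, against 16.1% and 16% of all genes). When a library was left out it was 0 to 1, against 6.13% to 13.8% of all genes. The count of genes called was 0, against 338 with DESeq2 and 0 to 110 when a library was left out, the 110 without aged replicate 2. Sirt4, Sirt5, Sirt6, Sirt7, Foxo1 and Foxo4 kept a negative log2 fold change under all 17. Sirt1 turned to -0.20 with library totals and to -0.15 and -0.19 with limma at a pseudocount of 1 and 0.1, and ran from -0.075 to 0.092 over libraries left out (below 0 without young replicate 1 and without aged replicate 1). Sirt2 turned to -0.18, -0.15 and -0.16 in the same settings, and to -0.010 without both young replicate 1 and aged replicate 2 (0.023 to 0.143 over single libraries left out). Sirt3 ran from -0.18 to 0.18 over libraries left out, turning without young replicate 2 and, at 0.0024, without aged replicate 1. Foxo3 turned to -0.056 without both libraries and ran from 0.039 to 0.505 over single ones, and Foxo6 to 0.63, with a range of -0.41 to 0.37 over libraries left out. Beyond the samples left out and the scaling applied, the cause was not tested. With the replicate block, 0 genes and 0 members were called and 1782 genes had an unadjusted p below 0.05; it changed no call, although each library correlated best with its own number. Members had 180 counts or more in each library, and 3 mice a group limit the precision: changes within the intervals given are not excluded by these data.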

Other observations

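Nnt, the mitochondrial transhydrogenase that makes NADPH from NADH, was outside the rule for named genes and is given because of its values. It was at 1.28, 35.6 and 3.90 CPM in young and 8.73, 0.663 and 2.19 CPM in aged replicates 1, 2 and 3, a wide range within each group (log2 fold change -1.82 ± 1.3, SE; edgeR, adjusted p = 0.643). Of the mitochondrial sirtuins, Sirt3 was highest in young replicate 2 as well, while Sirt4 was highest in young replicate 3 and Sirt5 in young replicate 1.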
